A study of Mus musculus with 2 samples.

Results

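The genes described here are 7 mouse NK receptor genes: Klra3, Klra4, Klra7, Klra8 and Klra9 of the Ly49 family, and the related receptors Klre1 and Klri2. They were taken by name, 7 of the 55357 features in the count matrices. They were read in NK cells and in effector CD8 T cells, which were gated on UMIs (counted RNA molecules) of other genes. The cells were live CD45-positive cells sorted from lung metastases in C57 mice. All tumours came from B16F10, a mouse melanoma cell line. Their IRF7 was wild type in 1 group (WT) and the IRF7-C435A mutant in the other (C435A). IRF7 is a transcription factor that drives type I interferon. Each genotype had 1 library, named after it. There is no replicate check, no test between the genotypes was made, and any difference between the libraries cannot be told apart from a difference between animals or preparations. The sources used here do not give the number of animals per library, their age or the way the tumours were placed.

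Ly49 receptors are lectin-like proteins of the NK cell surface, and many of them bind MHC class I molecules on other cells. Inhibitory members carry a tyrosine motif (an ITIM) in the cytoplasmic tail that recruits phosphatases and holds back killing. Activating members lack a working motif and signal through the adaptor encoded by Tyrobp. Each NK cell is known to express its own mix of these genes, so that a population holds many combinations. In the C57 strain group Klra3 (Ly49C), Klra7 (Ly49G) and Klra9 (Ly49I) encode inhibitory receptors, while Klra4 (Ly49D) and Klra8 (Ly49H) encode activating ones. Klra8 is known for recognising a protein of mouse cytomegalovirus. Klre1 encodes a receptor without signalling motifs of its own, which pairs with the product of Klri1 (inhibitory) or of Klri2 (activating).

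The start of the coding sequence holds this split. Below are the first 54 coding bases of the 5 Klra genes from the GENCODE M21 transcripts (GRCm38), 5′ to 3′ and counted from 1 at the A of the start codon. They are shown because they encode the stretch with the inhibitory motif, and capitals mark bases that differ from Klra3.
Klra3: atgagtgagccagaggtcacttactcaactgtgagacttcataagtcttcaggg
Klra9: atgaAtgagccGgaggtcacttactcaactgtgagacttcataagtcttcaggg
Klra7: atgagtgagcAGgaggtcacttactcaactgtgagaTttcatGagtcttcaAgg
Klra8: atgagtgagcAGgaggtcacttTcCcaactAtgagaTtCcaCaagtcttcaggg
Klra4: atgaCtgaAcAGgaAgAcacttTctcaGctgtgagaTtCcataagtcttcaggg
The activating genes Klra4 and Klra8 both carried A23T, which falls in a tyrosine codon of Klra3, and the inhibitory Klra7 and Klra9 did not. Klra9 differed from Klra3 at 2 of the 54 bases, Klra7 at 5, Klra8 at 8 and Klra4 at 10.

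All 7 genes lie on mouse chromosome 6, in the NK gene complex, within 759.67 kb of GRCm38. The 5 Klra genes lie on the minus strand within 293.844 kb: Klra4 (chr6:130043731-130067271), Klra8 (chr6:130115226-130129898), Klra9 (chr6:130178675-130193112), Klra7 (chr6:130218605-130233322) and Klra3 (chr6:130323289-130337574). Klri2 (chr6:129729041-129740484) is on the minus strand and Klre1 (chr6:129577905-129585827) on the plus strand. None of the 7 overlapped another annotated gene.

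Reads of close copies can be split or lost in counting, and the coding sequences show where this could apply. Over the whole coding sequence Klra3 and Klra9 were 95.9% identical, Klra8 and Klra9 91.9%, and Klra3 and Klra8 90.5%, while the other 7 pairs ranged from 74.0% to 79.2%. The libraries were read from the 3′ end, so the last 500 bases of each transcript matter more. In windows of 90 bases there, 12.4% of Klra9 windows occurred unchanged in another gene (Klra3, Klra8, Klra10 or Klra11-ps), as did 6.57% of Klra7 windows (Klra13-ps) and 5.15% of Klra3 windows (Klra9 or Klra10). Klra4, Klra8, Klre1 and Klri2 had none, and with windows of 150 bases, the read length in the labels, no member had any. Introns were not compared. Values of Klra3, Klra7 and Klra9 are therefore less certain than those of the other members, and sequencing errors that turn 1 copy into another were not examined.

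In the order C435A then WT, the matrices held 10373 and 10156 barcodes, of which 24 occurred in both. After filters and doublet removal 9427 and 9199 cells remained, with median depths of 3200.0 and 2684.0 UMIs. UMIs of Ptprc, which encodes CD45, were found in 91.3% and 88.4% of them. The cell type label of the samples reads melanoma cell, and 2.21% and 7.34% of cells had at least 2 UMIs over the pigment genes Mlana, Pmel, Dct and Tyrp1. The NK gate asked for at least 2 UMIs over Ncr1, Klrb1c, Eomes and Tbx21, with next to no T cell, B cell or myeloid marker UMIs. It took 762 and 275 cells, at median depths of 2033.5 and 1984 UMIs. The effector CD8 gate asked for T cell markers, Cd8a or Cd8b1, no Cd4, and at least 3 UMIs over Gzma, Gzmb, Gzmk, Ccl5 and Nkg7. It took 1688 and 826 cells, at median depths of 4777.5 and 3328.5 UMIs.

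NK genes outside the gate marked the NK-gated cells in both libraries. Levels are given in CPM, a gene's summed UMIs scaled to a common total of all UMIs of the gate. Prf1, which encodes perforin, was at 1665 and 1765 CPM, against 128 and 106 in effector CD8-gated cells. Tyrobp was at 3541 and 3200 CPM, against 30.7 and 58.1. Cd3e, a T cell receptor chain limited by the gate, was at 6.60 and 9.93 CPM. Lyz2, a myeloid gene that the gate allows up to 2 UMIs of, was at 194 and 404 CPM. Itga1 and Cxcr6, markers of tissue-resident innate lymphoid cells, stayed at or below 13.2 CPM.

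NK-gated cells held most molecules of these receptors. They carried 72.1% of all UMIs of the 7 genes in the C435A library and 62.0% in the WT library, although they were 8.08% and 2.99% of the cells. Effector CD8-gated cells carried 7.51% and 6.29%, and cells that no gate took carried 12.8% and 22.2%. The plot of levels by gate shows each gene in the 12 gates.

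**Figure D1:**
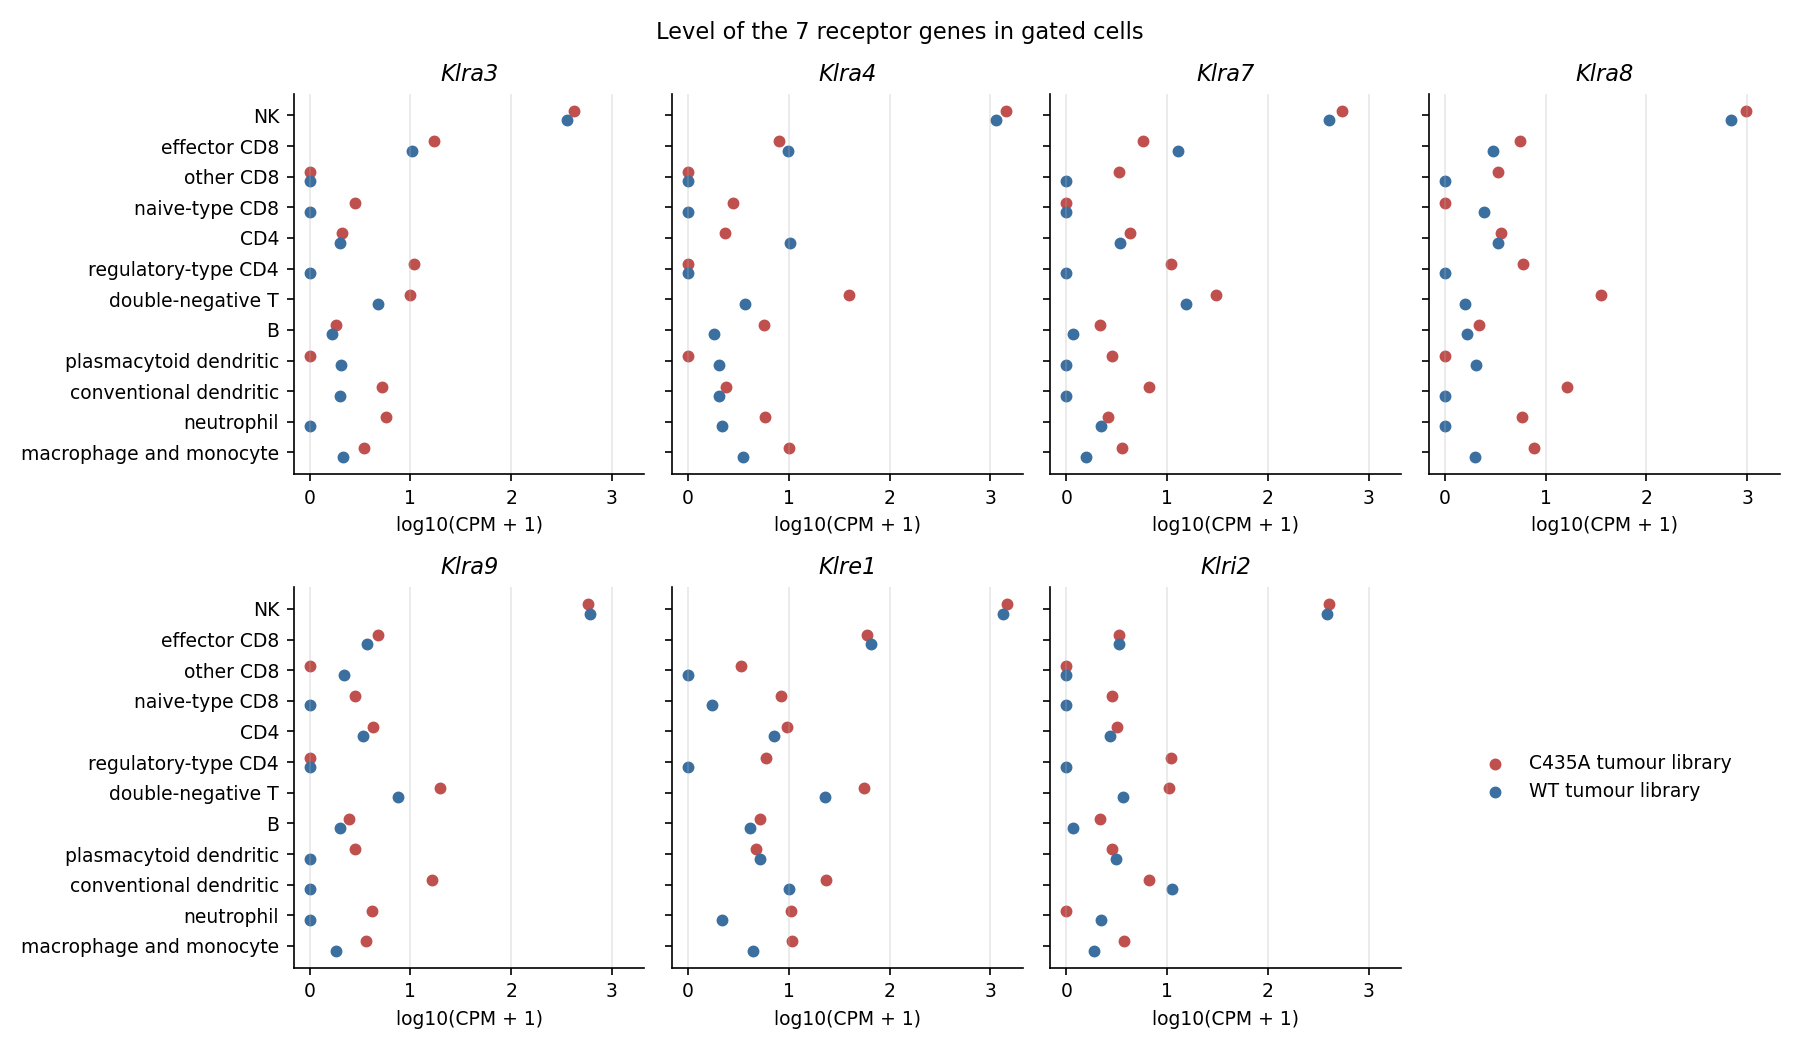
Level of each receptor gene in 12 gates, as log10(CPM + 1) on the x axis, with gates on the y axis and 1 point per library. In each of the 7 panels the NK gate lies far to the right of every other gate in both libraries, and effector CD8-gated cells come next for Klre1.

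In NK-gated cells the activating Klra4 was at 1430 CPM in the C435A library and 1146 CPM in the WT library, from 2383 and 692 UMIs. The other activating gene, Klra8, was at 984 and 684 CPM (1640 and 413 UMIs). Of the inhibitory genes, Klra9 was at 582 and 608 CPM (971 and 367 UMIs), Klra7 at 548 and 399 CPM (913 and 241 UMIs) and Klra3 at 423 and 356 CPM (705 and 215 UMIs). Klre1 was at 1461 and 1336 CPM (2436 and 807 UMIs), and its activating partner Klri2 at 404 and 381 CPM (673 and 230 UMIs). These are counts of 3′ ends and were not divided by gene length. The inhibitory partner Klri1 was nearly unread, with 6 and 1 UMIs, so a change in it was not detectable at this depth.

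Among the other Ly49 genes, Klra1 (356 and 97 UMIs) and the pseudogene Klra13-ps (498 and 183 UMIs) were well read in NK-gated cells. Klra14-ps had 58 and 19 UMIs and Klra5 had 30 and 17. Klra6 had 16 and 4, Klra10 had 7 and 3, Klra2 had 4 and 0, and Klra17 had 1 and 0. The 5 Klra members therefore stood above every other listed Ly49 gene in each library.

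Summed over the 5 Klra genes, the NK gate was at 3966 CPM [3871, 4063] in the C435A library and 3192 CPM [3051, 3337] in the WT library. Brackets hold 95% intervals throughout, and they cover counting error only. By point value alone, the next gate was not the same in both libraries. In the C435A library it was the double-negative T gate (T cells without UMIs of Cd4 or Cd8), at 131 CPM [116, 147]. Conventional dendritic-gated cells (41.8 CPM [28.2, 59.7]) and effector CD8-gated cells (36.2 CPM [32.7, 40.1]) followed with overlapping intervals. The dendritic value came from only 30 UMIs in 91 cells, and 1 cell held all 11 of its Klra9 UMIs. In the WT library effector CD8-gated cells (34.8 CPM [28.4, 42.2]) and double-negative T cells (27.9 CPM [22.6, 34.2]) were next, also with overlapping intervals. B-gated cells, which are not thought to express these genes, were at 9.34 CPM [7.49, 11.5] and 3.30 CPM [2.02, 5.10].

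A few cells held much of the Klra signal outside the NK gate. In B-gated cells of the C435A library 5 cells with at least 3 Klra UMIs held 58.0% of the gate's Klra UMIs, and each of the 5 had a UMI of Ncr1 or Klrb1c, which mark NK cells. Their median depth was 10745 UMIs. In the CD4 gate 4 such cells in each library held 66.0% and 90.2%, and all of them had a UMI of Ncr1 or Klrb1c. In the double-negative T gate 19 and 12 such cells held 88.0% and 64.2%, and 68.4% and 66.7% of them had one.

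The comparison of NK-gated with effector CD8-gated cells asks how far the genes separate these killer lineages. All 7 genes were higher in NK-gated cells in both libraries, by 24.7 to 213-fold in the C435A library and by 20.7 to 338-fold in the WT library. Of all genes with at least 20 UMIs, 25.2% of 11281 and 23.6% of 9288 were higher by at least 1.5-fold in the same comparison. The 2 smallest log2 ratios in the C435A library were those of Klre1 (4.63 [4.50, 4.76]) and Klra3 (4.72 [4.47, 4.97]). In the WT library they were those of Klre1 (4.37 [4.14, 4.61]) and Klra7 (5.08 [4.56, 5.63]). Klra8 had the largest, 7.73 [7.32, 8.18] and 8.40 [7.26, 9.85], the second from only 6 UMIs in effector CD8-gated cells. The median of the 7 members was 7.28 and 7.03, against 0.08 and 0.13 over all genes tested. Scaling by TMM moved every ratio of this comparison by -0.10 in the C435A library and by -0.14 in the WT library, which changed no direction.

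Within NK-gated cells, Klra molecules were gathered in some cells, while those of Klre1 were spread over most. To compare cells at 1 depth, each cell was thinned to 1000 UMIs, which left 738 and 266 cells and dropped 24 and 9. Klra4 then had a mean of 1.501 and 1.308 UMIs per cell, but was seen in 51.5% [47.8, 55.2] and 46.2% [40.1, 52.4] of cells. Molecules spread evenly over cells would give 77.7% and 73.0% at those means. Klre1, at means of 1.43 and 1.38, was seen in 73.8% [70.5, 77.0] and 70.7% [64.8, 76.1], against 76.1% and 74.8% for an even spread. The variance of the thinned counts over their mean, which is 1 for an even spread, was 2.52 and 2.90 for Klra4 and 2.19 and 2.00 for Klra8. It was 1.77 and 1.695 for Klra9, 1.71 and 1.63 for Klra7, and 1.63 and 1.53 for Klra3. Klri2 had 1.36 and 1.29 and Klre1 had 1.15 and 1.26. In both libraries the 5 Klra genes thus had higher values than Klri2 and Klre1. Unthinned, Klra4 was seen in 57.9% and 53.5% of NK-gated cells and Klre1 in 91.6% and 87.6%. The share of thinned B-gated cells with a Klra4 UMI, the background, was 0.349% and 0.0442%, and with a Klre1 UMI 0.262% and 0.221%, at median depths of 2188 and 1888.5 UMIs.

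**Figure D2:**
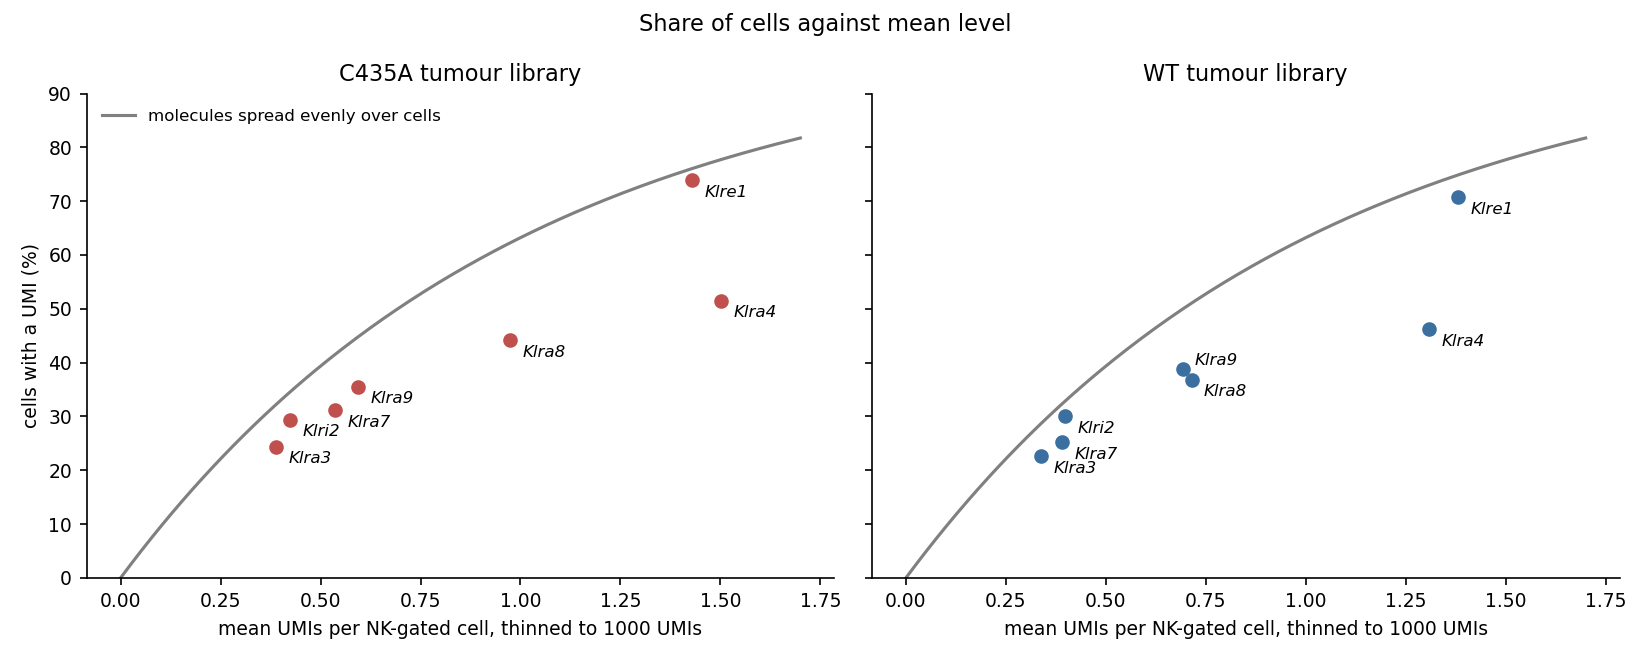
Share of NK-gated cells with a UMI of each gene (y axis, percent) against the gene's mean UMIs per cell (x axis), both after thinning to 1000 UMIs, in the C435A library (left) and the WT library (right). The grey line is the share for molecules spread evenly over cells. Klre1 lies near the line at 73.8% and 70.7%, and Klra4 lies far under it at 51.5% and 46.2%.

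UMIs of 2 or more of the 5 Klra genes were common in single NK-gated cells. After thinning, 10.4% and 16.5% of cells had a UMI of none, 27.6% and 28.6% of 1 gene, 32.0% and 31.2% of 2, and 25.1% and 17.3% of 3. UMIs of 4 genes were found in 4.47% and 5.26%, and of all 5 in 0.407% and 1.13%. Cells with 2 or more made up 61.9% [58.3, 65.4] in the C435A library and 54.9% [48.7, 61.0] in the WT library, with overlapping intervals.  The share depended on depth and on the rule for a detected gene. Unthinned, 78.9% [75.8, 81.7] and 70.2% [64.4, 75.5] of cells had 2 or more. With at least 2 UMIs asked of each gene, also unthinned, 61.2% [57.6, 64.6] and 49.5% [43.4, 55.5] did. The intervals of the libraries were apart in both of these unthinned settings. They overlapped at 2000 UMIs a cell, at 79.5% [75.2, 83.4] and 71.1% [62.7, 78.6].

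**Figure D3:**
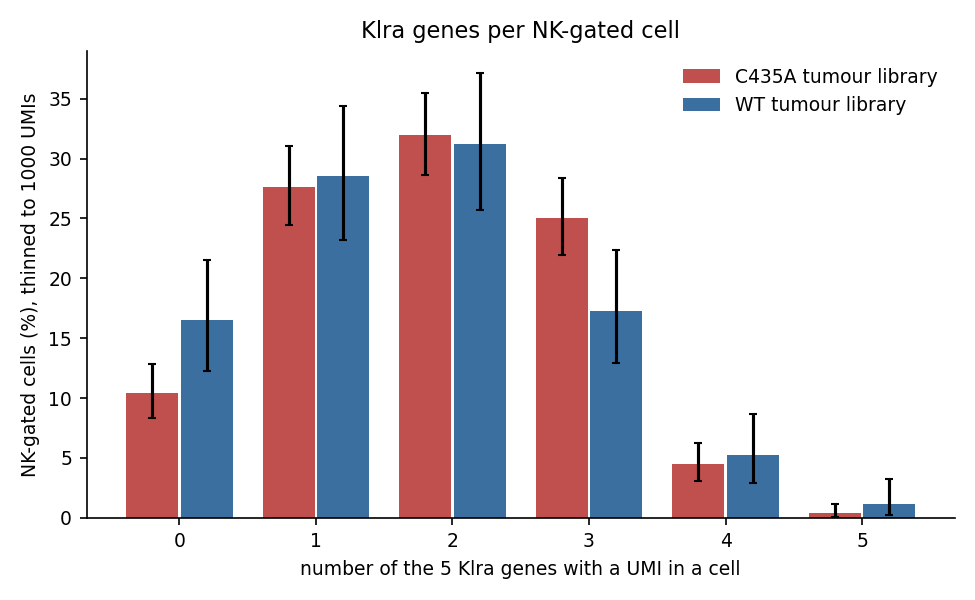
Share of NK-gated cells (y axis, percent) by the number of the 5 Klra genes with a UMI (x axis), after thinning to 1000 UMIs, with 95% Clopper-Pearson intervals. Both libraries peak at 2 genes, at 32.0% and 31.2%, and cells with none were 10.4% and 16.5%.

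Many NK-gated cells had UMIs of both activating and inhibitory receptors. After thinning, 49.5% [45.8, 53.1] of NK-gated cells in the C435A library had UMIs of both an activating gene (Klra4 or Klra8) and an inhibitory one (Klra3, Klra7 or Klra9). The share was 38.7% [32.8, 44.9] in the WT library, and the intervals do not overlap. Activating genes alone were read in 21.0% and 21.4% of cells, and inhibitory genes alone in 19.1% and 23.3%. Unthinned, both kinds were read in 66.8% [63.3, 70.1] and 53.1% [47.0, 59.1]. Activating genes gave 60.8% and 57.3% of the Klra UMIs of the NK gate.

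Pairs of genes were compared by the share of cells with a UMI of 1 gene among cells with and without a UMI of the other. By sign alone, this share was higher in cells with the other gene in both libraries for 4 of the 10 pairs of Klra genes and lower for 1. The other 5 differed in sign between the libraries. These counts are for cells thinned as above, and they changed with depth, as given below. The activating pair had the largest differences. Klra8 was seen in 48.9% [43.8, 54.1] of cells with a Klra4 UMI and 39.1% [34.0, 44.4] of cells without one in the C435A library. The WT library gave 49.6% [40.5, 58.8] and 25.9% [18.9, 33.9]. At this depth the intervals overlapped in the C435A library and were apart in the WT library, and at 2000 UMIs a cell this was reversed. Klra3 was seen in 27.3% of cells with and 22.1% of cells without a Klra8 UMI, and in 29.6% and 18.5% in the WT library. Klra9 went the other way with Klra4: it was seen in 33.16% of cells with and 37.99% of cells without a Klra4 UMI, and in 33.3% and 43.4% in the WT library. The intervals of these Klra3 and Klra9 shares overlapped in each library. Klra3 and Klra9, the most alike in sequence, differed by -4.68 and 1.22 percentage points in the same measure. At 2000 UMIs a cell the differences were -12.0 and -2.33 points, so this pair was then lower in both libraries. Klra7 with Klra9 was also lower in both. Klra4 with Klra7 and Klra8 with Klra9 were higher in both. Klra3 with Klra7 still differed in sign (-7.30 and 1.87 points), and pairs that had shared a sign kept it. Klra8 was seen in 62.7% [56.2, 68.9] of cells with and 42.5% [34.7, 50.6] of cells without a Klra4 UMI in the C435A library. In the WT library these shares were 55.8% [44.1, 67.2] and 31.0% [19.5, 44.5].

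Ly49 genes are known to be gained as NK cells mature. Mature-type NK cells (at least 2 UMIs over Klrg1, S1pr5, Zeb2, Cma1, Itgam and Cx3cr1) were 80.6% and 78.5% of the NK gate. Less mature ones (0 of these, and at least 1 UMI over Cd27, Emb, Ctla2a, Tcf7 and Il7r) were 7.09% and 10.5%, which is 54 and 29 cells. Median depths were 2096.5 and 2015 UMIs in mature-type cells, and 1939 and 2083 UMIs in less mature ones. A Klra UMI was found in 90.4% [87.7, 92.6] of thinned mature-type cells and 80.4% [66.9, 90.2] of less mature ones in the C435A library. In the WT library it was found in 88.1% [82.9, 92.1] and 53.6% [33.9, 72.5], without overlap of the intervals. The summed level was 4048 and 3481 CPM in mature-type cells, and 2933 and 2021 CPM in less mature cells. Klra8 was at 780 and 263 CPM in less mature cells against 1011 and 808 in mature-type cells. Klri2 did not follow this order in the C435A library, with 470 CPM in less mature and 395 CPM in mature-type cells, and was at 360 and 376 CPM in the WT library.

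NK-gated cells without any Klra UMI were compared with the rest in genes that took no part in the split. After thinning there were 77 and 44 such cells, against 661 and 222 with a Klra UMI. Tcf7, a transcription factor of early NK and T cells, was seen in 10.4% [4.59, 19.4] of cells without and 3.93% [2.59, 5.71] of cells with a Klra UMI in the C435A library. The WT library gave 11.4% [3.79, 24.6] and 2.25% [0.735, 5.18]. Il7r, the interleukin receptor of early lymphoid cells, was seen in 5.19% and 0.605%, and in 6.82% and 0% in the WT library, where 0 of 222 cells allows up to 1.65%. The intervals of Tcf7 and of Il7r overlapped in both libraries. The genes that defined mature-type cells went both ways in the C435A library. S1pr5 (20.8% and 19.7%), Cma1 (37.7% and 33.3%) and Cx3cr1 (13.0% and 12.1%) were higher in cells without a Klra UMI. Klrg1, Zeb2 and Itgam were lower in such cells. In the WT library all of these genes were lower in such cells, and their intervals overlapped in both libraries. Klrc1, which encodes the inhibitory receptor NKG2A for non-classical MHC class I, was seen in 26.0% [16.6, 37.2] and 11.95% [9.58, 14.7], and in 27.3% [14.96, 42.8] and 13.1% [8.93, 18.2]. The Klrc1 intervals did not overlap in the C435A library and did in the WT library. The same held for Itga2, an integrin of NK cells, at 7.79% [2.91, 16.2] and 20.9% [17.8, 24.2], and at 11.4% and 17.1% in the WT library. Gzma, which encodes a granzyme, had intervals that were apart in both libraries. It was seen in 94.8% [87.2, 98.6] of cells without and 99.5% [98.7, 99.9] of cells with a Klra UMI, and in 84.1% [69.9, 93.4] and 99.55% [97.5, 99.99] in the WT library. Klre1 was seen in 68.8% and 74.4% of these cells, and in 63.6% and 72.1% in the WT library. Prf1 was seen in 75.3% and 71.6%, and in 68.2% and 77.9%.

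The comparison of the genotypes in NK-gated cells asks whether the tumour's IRF7 changed the receptors of the NK cells around it. In CPM, the activating genes were higher in the C435A library: Klra8 by a log2 ratio of 0.52 [0.37, 0.68] and Klra4 by 0.32 [0.20, 0.44]. Of the inhibitory genes, Klra7 was at 0.46 [0.25, 0.67], Klra3 at 0.25 [0.03, 0.48] and Klra9 at -0.06 [-0.24, 0.12]. Klre1 was at 0.13 [0.01, 0.25] and Klri2 at 0.08 [-0.13, 0.31]. None of the 7 was higher or lower by at least 1.5-fold, against 8.38% higher and 9.07% lower of the 8174 genes with at least 20 UMIs. The median of the 7 was 0.25, and that of all genes -0.01. Klra8 came nearest to 1.5-fold, at 1.44-fold. It passed 1.5-fold under both other sets of gate thresholds, at 0.61 and 0.68. Both of those sets allowed no T cell marker UMI in the NK gate.

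Summed, the activating pair was at 2413 and 1829 CPM, a log2 ratio of 0.40 [0.30, 0.50], and the inhibitory trio at 1553 and 1362 CPM, a ratio of 0.19 [0.08, 0.30]. All 5 together gave 0.31 [0.24, 0.39], and 0.21 when every cell was thinned to 1000 UMIs and so weighed alike. The share of thinned cells with a UMI differed less clearly: 44.2% [40.6, 47.8] and 36.8% [31.0, 42.9] for Klra8, 51.5% and 46.2% for Klra4, 31.2% [27.8, 34.6] and 25.2% [20.1, 30.9] for Klra7. It was 24.4% and 22.6% for Klra3, 35.5% and 38.7% for Klra9, 73.8% and 70.7% for Klre1, and 29.4% and 30.1% for Klri2. The intervals of the libraries overlapped for each of the 7 genes. The Lyz2 level of the gate, given above, was higher in the WT library, and its part in these ratios was not tested.

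**Figure D4:**
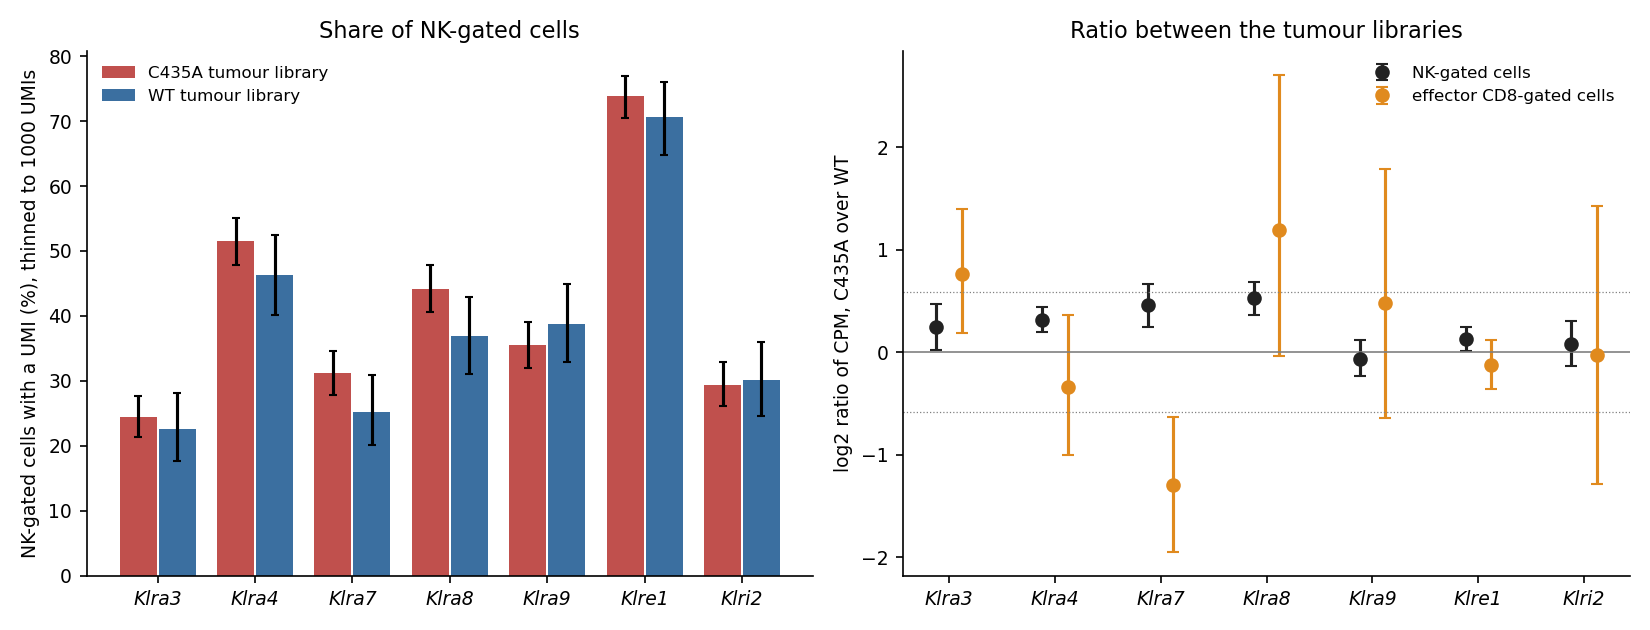
Left, share of NK-gated cells with a UMI of each gene (percent, thinned to 1000 UMIs) in each library, with 95% Clopper-Pearson intervals. Right, log2 ratio of CPM, C435A over WT, in NK-gated and effector CD8-gated cells, with 95% intervals for counting error and dotted lines at 1.5-fold. In NK-gated cells Klra8 has the highest ratio at 0.52. In effector CD8-gated cells the intervals are wide and Klra7 is lowest at -1.29.

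Genes around these receptors were counted at the same threshold of 1.5-fold, which 8.38% of all genes passed as higher and 9.07% as lower. The lists below are too short to be set apart from those shares. Of the 10 measured lectin genes of the NK complex outside the Ly49 family, 0 were higher and 0 lower by 1.5-fold, with a median of -0.14. Among these, Klrd1, the partner chain of NKG2A, was at 0.15 [0.04, 0.26], and Klrb1c, which encodes NK1.1 and is part of the gate, at -0.27 [-0.42, -0.13]. Of 5 measured other Ly49 genes 1 was lower by that fold, Klra5 (30 and 17 UMIs, -0.65 [-1.55, 0.31]), and Klra1 was at 0.41 [0.08, 0.75]. In the signalling lists, Tyrobp was at 0.15 [0.07, 0.22] and 1 of 5 genes was lower, Vav1 (-0.73 [-1.29, -0.16]), an exchange factor that acts in activation. Of 3 genes of inhibitory signalling, 1 was lower, Ptpn6 (167 and 112 UMIs, -0.89 [-1.24, -0.53]), which encodes the phosphatase that ITIM receptors recruit. Of the 3 genes of MHC class I, the ligand of inhibitory Ly49 receptors, none passed 1.5-fold within NK-gated cells, and H2-K1 was at 0.29 [0.22, 0.35]. Of 6 transcription factors of NK genes none did: Tbx21 was at 0.23 [-0.01, 0.48] and Eomes at 0.18 [-0.04, 0.41].

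In effector CD8-gated cells Klra genes were rare, and as a group more frequent than in B-gated cells. A Klra UMI was found in 3.41% [2.59, 4.39] of thinned cells in the C435A library and 2.31% [1.40, 3.58] in the WT library. In thinned B-gated cells it was 0.785% [0.466, 1.24] and 0.221% [0.0717, 0.515]. Unthinned, the shares were 7.17% and 4.60% of effector CD8-gated cells. Klre1 was the commonest member there, in 5.62% [4.56, 6.83] and 6.20% [4.65, 8.07] of thinned cells, and at 59.1 and 64.5 CPM. By single gene, Klra3 was seen in 1.79% [1.21, 2.55] and 0.972% [0.421, 1.91] of thinned cells, against 0.174% [0.0475, 0.446] and 0.0883% [0.0107, 0.319] of B-gated cells. Klra4 was seen in 0.478% [0.207, 0.939] and 0.486% [0.133, 1.24], against 0.349% [0.151, 0.686] and 0.0442% [0.00112, 0.246]. The intervals of the gates were apart for Klra3 in both libraries and overlapped for Klra4 in both. They also overlapped for Klra8, Klra9 and Klri2 in both libraries, and for Klra7 in the C435A library. At 1000 UMIs a cell the intervals thus do not separate these genes from the background there. Overlap does not show that the shares are equal. Klra7 in the C435A library was seen in 0.597% [0.287, 1.10], against 0.0872% [0.0106, 0.315] of B-gated cells.

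The mix of genes was not that of NK cells. Klra3 gave 44.4% of the Klra UMIs of effector CD8-gated cells in the C435A library and 27.2% in the WT library, against 10.7% and 11.2% in NK-gated cells. In the WT library, from only 103 Klra UMIs, Klra7 gave the largest share. Klra7 gave 13.3% and 34.0%, against 13.8% and 12.5% in NK-gated cells. Klra8 gave 12.8% and 5.83%, against 24.8% and 21.4%. For each Klra UMI there were 1.63 and 1.85 UMIs of Klre1, against 0.368 and 0.419 in NK-gated cells. In B-gated cells of the C435A library, from 88 Klra UMIs, Klra3 gave 9.09% and there were 0.455 UMIs of Klre1 for each Klra UMI. The WT library had only 20 Klra UMIs in B-gated cells.

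The members were also read in subsets of the effector CD8-gated cells. Innate-like cells (at least 2 UMIs over Ikzf2, Fcer1g and Xcl1) had a Klra UMI in 14.4% [8.62, 22.1] and 8.75% [3.59, 17.2] of thinned cells, against 2.57% [1.84, 3.48] and 1.62% [0.837, 2.80] of the rest, and the intervals were apart in both libraries. They were 119 and 80 cells, at 197 and 152 CPM for the 5 genes together. Klra7 lay mostly there, at 47.0 and 75.9 CPM against 0.74 and 1.95 in the rest. Klra4 was at 64.5 CPM against 1.37 in the C435A library. In the WT library 12 of its 15 UMIs in innate-like cells came from 1 cell, and the thinned shares, 1.25% [0.0316, 6.77] and 0.404% [0.0833, 1.18], overlapped. In the C435A library the innate-like subset had proportions nearer those of the NK gate, with 32.8% of Klra UMIs from Klra4 (36.0% in NK-gated cells) and 0.444 UMIs of Klre1 for each Klra UMI. In the WT library it did not: Klra7 gave 30 of the 60 Klra UMIs (12.5% in NK-gated cells) and Klra8 6.67% (21.4%). Klra3 gave 71.4% and 51.2% of the Klra UMIs of the cells outside the innate-like subset. Klre1 was at 90.5 and 329 CPM in circulating-type cells (at least 2 UMIs over Klrg1, S1pr5, Cx3cr1 and Zeb2), and at 87.5 and 121 CPM in innate-like cells. In the C435A library circulating-type cells held 496 of the 613 Klre1 UMIs of the gate, in 783 of its 1688 cells. Klre1 was also at 96.9 CPM in cells that were not dividing there, a subset that can overlap the circulating-type cells. In dividing cells (at least 2 UMIs over Mki67, Top2a, Birc5 and Pclaf) the 5 Klra genes were at 26.0 CPM in 722 cells of the C435A library. In the WT library only 34 cells were dividing, and they held 1 Klra UMI.

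**Figure D5:**
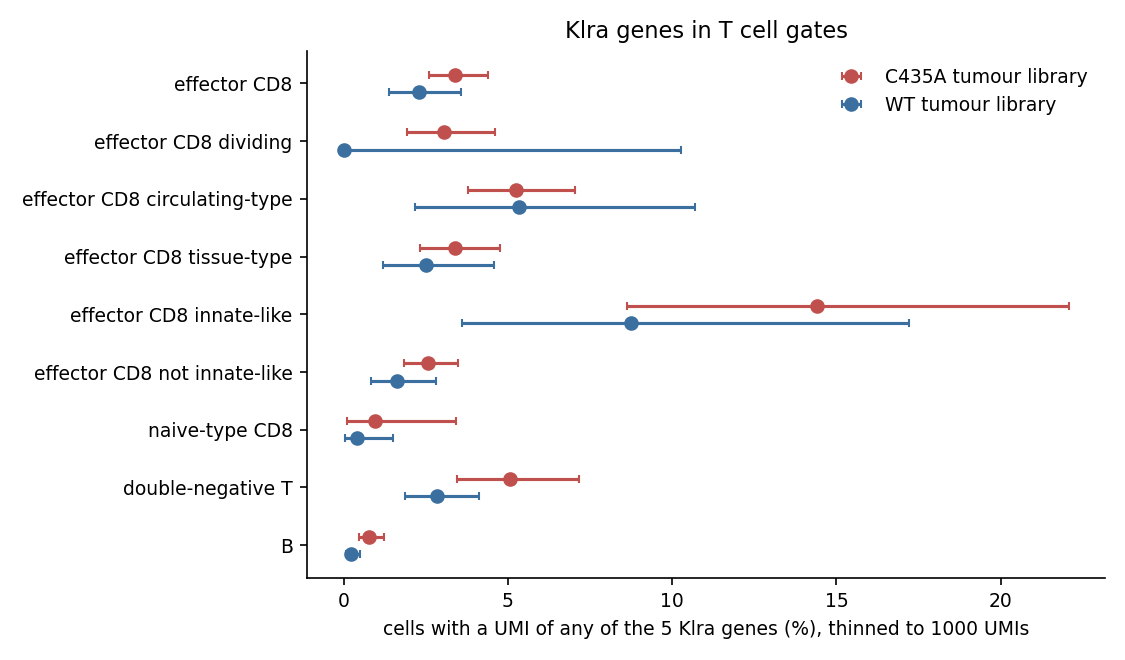
Share of cells with a UMI of any of the 5 Klra genes (x axis, percent, thinned to 1000 UMIs) in T cell gates, subsets of effector CD8-gated cells and B-gated cells, with 95% Clopper-Pearson intervals. Subsets overlap one another. The innate-like subset is highest in both libraries at 14.4% and 8.75%, and B-gated cells are at 0.785% and 0.221%.

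Effector CD8-gated cells with a Klra UMI numbered 121 and 38, and 104 and 34 of them had a UMI of only 1 of the 5 genes. A small part of them held most of the signal: 39 and 14 cells with at least 3 Klra UMIs gave 72.9% and 71.8% of it. NK markers were more frequent in these cells. A UMI of Ncr1 or Klrb1c was found in 14.9% and 15.8% of cells with a Klra UMI, against 2.74% and 2.41% of cells without one, and in 33.3% and 21.4% of cells with at least 3. Fcer1g, an adaptor of NK cells and innate-like T cells, is part of the subset rule. It was found in 25.6% and 42.1% of cells with a Klra UMI, against 10.3% and 9.39% of cells without one. Ikzf2, also of that rule, was found in 10.7% and 28.9%, against 9.89% and 12.2%. Xcl1, the last gene of the rule, was found in 5.79% and 26.3%, against 4.21% and 4.82%. Ikzf2 and Xcl1 thus differed little in the C435A library. Median depths were 4829 and 3774.5 UMIs in cells with a Klra UMI and 4768 and 3312.5 in cells without one. Cells with at least 3 Klra UMIs were deeper, at 5780 and 3980 UMIs.

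Between the genotypes, effector CD8-gated cells showed no common direction. Klra3 was at 16.1 and 9.45 CPM (167 and 28 UMIs, 0.77 [0.19, 1.40]) and Klra7 at 4.82 and 11.8 CPM (50 and 35 UMIs, -1.29 [-1.95, -0.63]). Klra4 was at 6.94 and 8.78 CPM (72 and 26 UMIs, -0.34 [-1.003, 0.37]). Klra8 had 48 and 6 UMIs (1.19 [-0.03, 2.71]), Klra9 39 and 8 (0.48 [-0.64, 1.79]) and Klri2 24 and 7 (-0.03 [-1.29, 1.43]). Klre1, with 613 and 191 UMIs, was at -0.13 [-0.36, 0.12]. At the threshold of 1.5-fold, 2 of the 7 genes (Klra3 and Klra8) were higher and 1 (Klra7) lower, against 18.0% higher and 20.4% lower of the 11503 genes tested. The 5 Klra genes summed were at 36.2 and 34.8 CPM, a log2 ratio of 0.06 [-0.26, 0.39]. Lyz2 was lower in the gate in the C435A library (-1.60 [-1.74, -1.45]), and its part in these ratios was not tested. The summed Klra level of B-gated cells, the background, was higher in the C435A library, at 9.34 and 3.30 CPM. The part of this background in the ratios was not tested either.

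These ratios moved with the cells that entered the gate. Dividing cells, which were 722 of 1688 and 34 of 826, supply many UMIs to the total. Without them the sum was at 0.57 and Klra7 at -0.34 [-1.05, 0.37], while stricter gates gave -0.69 for the sum and 0.01 for Klra3. Leaving out the 61 and 25 cells with a UMI of Ncr1 or Klrb1c gave -2.03 for Klra7. For the lists that follow, the shares of all genes past 1.5-fold were again 18.0% higher and 20.4% lower, and lists this short cannot be set apart from them. Of the other Ly49 genes, Klra1 (25 and 43 UMIs, -2.59 [-3.36, -1.85]) and Klra6 (19 and 18 UMIs, -1.73 [-2.74, -0.72]) were lower in effector CD8-gated cells of the C435A library. These are 2 of the 3 genes of that list that were measured. Of 8 measured lectin genes of the NK complex 2 were higher, Klrg1 (1.44 [1.20, 1.697]) and Klrc1 (1.04 [0.78, 1.31]), and 2 lower, Clec2d (-0.68 [-0.83, -0.53]) and Klrb1c (-0.68 [-1.30, -0.04]). Of the transcription factors, Tbx21 (1.38 [1.13, 1.65]) and Id2 (0.87 [0.78, 0.96]) were higher and Tcf7 (-1.48 [-1.59, -1.37]) lower.

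The genes whose level over the 12 gates in both libraries was most like that of the 5 Klra genes summed were ranked by Pearson's r of log2(CPM + 1), over 24 points that share 2 libraries and their depths. Of 5682 genes compared, Klrc2 was first (0.949), an activating receptor gene of the NKG2 family, at 379 and 419 CPM in NK-gated cells. Klra13-ps (0.936), which shares 90-base windows with Klra7, came next. The others in the first 10 were Cma1 (0.921), which encodes a chymase and is read in mature NK cells, Klrb1f (0.893), Cpne7 (0.890), S1pr5 (0.885), Spry2 (0.884), Klrc1 (0.879), Phactr3 (0.878) and Cym (0.870). Of these 10, Klrc2, Klrb1f and Klrc1 are receptor genes of the NK complex. S1pr5 encodes the receptor by which mature NK cells leave tissue. Cma1 and S1pr5 are also in the list that defined mature-type NK cells.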

How the data were processed

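The deposited values are counts of UMIs per gene and barcode. They came from Cell Ranger, at version 7.2.0 per the file headers, with the build GRCm38 named in the submitters' processing notes. The labels' protocols name both BD Rhapsody and a 10x 3′ kit, so the platform is uncertain. No source used here gives the annotation release or the intron setting. A further deposited expression table per library was not used.

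Barcodes with at least 200 genes, 500 UMIs and under 20% mitochondrial UMIs were kept, which removed 102 and 157. The 844 and 800 highest Scrublet scores (0.8% per 1000 barcodes; scanpy 1.11.5) were removed as doublets. Gates used no member gene. UMIs were summed per gate and library and divided by the gate's total (CPM). Log2 ratios have exact conditional 95% intervals, shares have exact Clopper-Pearson intervals (scipy 1.17.1), and summed counts have exact Poisson intervals. Thinning to 1000 UMIs used seed 0. Genes with at least 20 UMIs over both sides of a comparison were counted, and a count of 0 allows up to 3 counts. No test between the genotypes was possible with 1 library each. TMM factors came from edgeR 4.0.16 and coding sequences, in place of proteins, were aligned with Biopython 1.88. The interval script was tested on simulated data.

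Named genes are the 7 members, the genes of the lists, and the 10 genes most alike, ranked among genes with at least 50 UMIs in NK-gated cells, leaving out members and gate markers. Members, lists and gates were chosen with earlier results of these data known. The alternatives that leave out cells with a UMI of Ncr1 or Klrb1c, or the cell with most UMIs, were added after seeing the data.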

Additional observations from a re-analysis of the deposited data

Results flagged for a closer look

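Klra7, an inhibitory Ly49 gene, went in opposite directions in the 2 gates. Its log2 ratio of C435A over WT was 0.46 in NK-gated cells and -1.29 in effector CD8-gated cells, and the difference between the gates was not tested. The value in effector CD8-gated cells rests on 50 and 35 UMIs. It was -0.34 without dividing cells and -0.32 with every cell thinned to 1000 UMIs, both with intervals that hold 0, and -2.06 with stricter gates.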

How the results depend on the processing

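No paired analysis was possible because each genotype had 1 library. The looser gates asked for fewer NK and effector marker UMIs, but like the stricter gates they allowed no T cell marker UMI in the NK gate. They took 728 and 270 NK-gated cells, against 762 and 275, so the NK gate was not wider. In NK-gated cells 1 member was higher by 1.5-fold with stricter gates and 1 with looser gates, against 0. The sum of the 5 Klra genes was at 0.21 with every cell thinned. In effector CD8-gated cells that sum was -0.69 with stricter gates, 0.55 with looser gates, 0.46 with no doublets removed, 0.60 thinned and 0.57 without dividing cells, against 0.06. The members higher there were 1 with stricter gates, and 4 with no doublets removed, with thinning and without dividing cells, against 2. Those lower were 3 with stricter gates, 0 without dividing cells and 3 without cells with a UMI of Ncr1 or Klrb1c, against 1. The log2 ratio of NK over effector CD8 for the sum was 5.70 with stricter and 7.07 with looser gates in the WT library. In the C435A library it was 6.09 with no doublets removed and 6.38 thinned. Thinning to 2000 UMIs and no thinning gave 93.9% and 94.0% of NK-gated cells with a Klra UMI in the C435A library, and 89.6% and 91.3% in the WT library. For cells with 2 or more Klra genes they gave 79.5% and 78.9%, and 71.1% and 70.2%. In effector CD8-gated cells the share with a Klra UMI was 7.17% and 4.60% with no thinning, and 4.07% in the WT library with stricter gates. No log2 ratio whose interval left out 0 changed sign under any alternative run. The depth limits Klra8, Klra9 and Klri2 in effector CD8-gated cells of the WT library, which had 6, 8 and 7 UMIs.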
